A study of Homo sapiens with 12 samples.

Results

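The genes described here carry glucose into the cell, split it to pyruvate and lactate, and hold pyruvate back from the citric acid cycle. They were the 10 genes whose symbol in the deposited expression table was SLC2A1, SLC2A4, HK1, HK2, PFKM, PFKP, LDHA, LDHB, PGAM2 or PDK4, of 61806 genes in all, and each symbol matched 1 row. H1 is an established human embryonic stem cell line, here wild type, and all cultures had been induced towards mesendoderm with CHIR99021, a GSK3 inhibitor that activates WNT signaling. Bulk RNA-seq was made from 3 kinds of culture at Day 12 and at Day 16, with 2 libraries in each of 6 groups. NP-IWP2 cells were left static, without passaging, and received IWP2, a WNT inhibitor that drives the cells towards the heart. Both other kinds were passaged on Day 2. P-DF cells then stayed in basal DF medium with no IWP2, and P-IWP2 cells were given IWP2. P-IWP2 differs from NP-IWP2 in passaging and in what went with it, such as dissociation, replating at another density and any survival factor added then. P-DF differs from NP-IWP2 in these and in IWP2, and the 2 changes cannot be told apart there. All 12 libraries came from 1 cell line. The labels do not say whether the libraries of a group were separate cultures, so p-values measure the spread between these libraries, which may be technical.

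Glucose enters cells through facilitative transporters of the SLC2A (GLUT) family, is phosphorylated by hexokinases, and is committed to glycolysis by phosphofructokinase. Lactate dehydrogenase interconverts pyruvate and lactate, and pyruvate dehydrogenase kinases switch off the complex that sends pyruvate into the citric acid cycle. Most of these steps have a ubiquitous form and a form that is prominent in striated muscle. The fetal heart relies largely on glucose and lactate, and the heart after birth shifts to fatty acids, with more SLC2A4 (GLUT4) relative to SLC2A1 (GLUT1) and with PDK4 induced by fatty acids and fasting.

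The libraries held 14885589 to 19176239 counts each. Levels are given as FPKM, the deposited read counts scaled to exon length and to the total counts of the library, and differences as log2 fold changes with their SE from edgeR's quasi-likelihood test on the counts. A gene is said to have risen or fallen where the Benjamini-Hochberg adjusted p over 19505 tested genes was under 0.05. One library stood apart: P-IWP2 Day 12 replicate 5 had a Spearman correlation of 0.928 with its partner, against 0.987 to 0.993 within the other 5 pairs. Its summed level of 11 cardiomyocyte markers was 2443 FPKM against 5498 FPKM in the partner, and its summed level of 8 fibroblast and epicardial markers was 769 FPKM against 25.1 FPKM. All 12 libraries share 1 estimate of the spread, and the errors of the comparisons within a day were smaller with either library of that pair left out, so values without replicate 5 are given beside the others. FPKM are on the scale of total counts, and on that scale the median log2 fold change over all genes lay between -0.49 and 0.04 in the comparisons used here, whereas the fold changes given are relative to a median near 0. The labels name a library kit for long reads and processing tools for short ones, and counts of long reads need not scale with exon length, so an order of level between genes depends on a read type that is not settled here. The defining cardiomyocyte markers were present in all groups, between 2443 and 10769 FPKM in sum, and the 5 skeletal muscle markers summed to at most 0.47 FPKM. In bulk libraries fewer cells of a type and less RNA per cell cannot be told apart.

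SLC2A1 fell after passaging in both passaged cultures and on both days. This gene (ENSG00000117394, hg38 chr1:42925353-42958893, minus strand) encodes GLUT1, the glucose transporter of most proliferating and fetal cells. On Day 12 it measured 23.6 and 20.6 FPKM in NP-IWP2, 5.62 and 3.94 FPKM in P-DF, and 4.93 and 6.83 FPKM in P-IWP2. On Day 16 it measured 24.7 and 19.9 FPKM in NP-IWP2, 4.90 and 4.59 FPKM in P-DF, and 4.37 and 6.96 FPKM in P-IWP2. All 4 static libraries were above all 8 passaged ones on both days, whereas the 4 passaged groups overlapped their neighbours in the order of mean levels. The log2 fold change of P-DF against NP-IWP2 was -2.12 ± 0.32 on Day 12 (edgeR, adjusted p = 0.0102) and -2.01 ± 0.32 on Day 16 (adjusted p = 0.00431). For P-IWP2 against NP-IWP2 it was -1.91 ± 0.31 on Day 12 (edgeR, adjusted p = 0.020) and -1.69 ± 0.31 on Day 16 (adjusted p = 0.00786). These comparisons share their NP-IWP2 libraries. Without replicate 5 the Day 12 value for P-IWP2 was -1.60 ± 0.30 (adjusted p = 0.00260). On Day 12 the P-DF call was lost without any 1 of the 4 libraries compared (-2.43 to -1.87, adjusted p = 0.0505 to 0.118 in edgeR), and the P-IWP2 call without either NP-IWP2 library (-2.01 and -1.79, adjusted p = 0.0959 and 0.157). The Day 16 call of P-DF was lost without P-DF replicate 4 (-1.97, adjusted p = 0.0566). Over both days SLC2A1 fell in P-DF by 2.06 ± 0.14 (edgeR, adjusted p = 6.22e-06), a call that no left-out library ended. In P-IWP2 the call over both days was lost without NP-IWP2 Day 16 replicate 1, at a log2 fold change of -1.72.

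Markers of other cell types differed between the same cultures as SLC2A1. The 9 hepatic and endoderm markers summed to 409 to 829 FPKM in NP-IWP2 and to 5.71 to 20.1 FPKM in the passaged groups, where AHSG, FGB, HNF4A and FOXA2 were at 0 in both P-DF Day 12 libraries. The 8 fibroblast and epicardial markers summed to 705 to 1244 FPKM in NP-IWP2 and to 15.04 to 27.3 FPKM in passaged libraries other than replicate 5. Replicate 5, with 769 FPKM of those markers, had 4.93 FPKM of SLC2A1, within the range of the other passaged libraries. The part of hepatic, endoderm, fibroblast or epicardial cells in the SLC2A1 result was not tested.

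**Figure D1:**
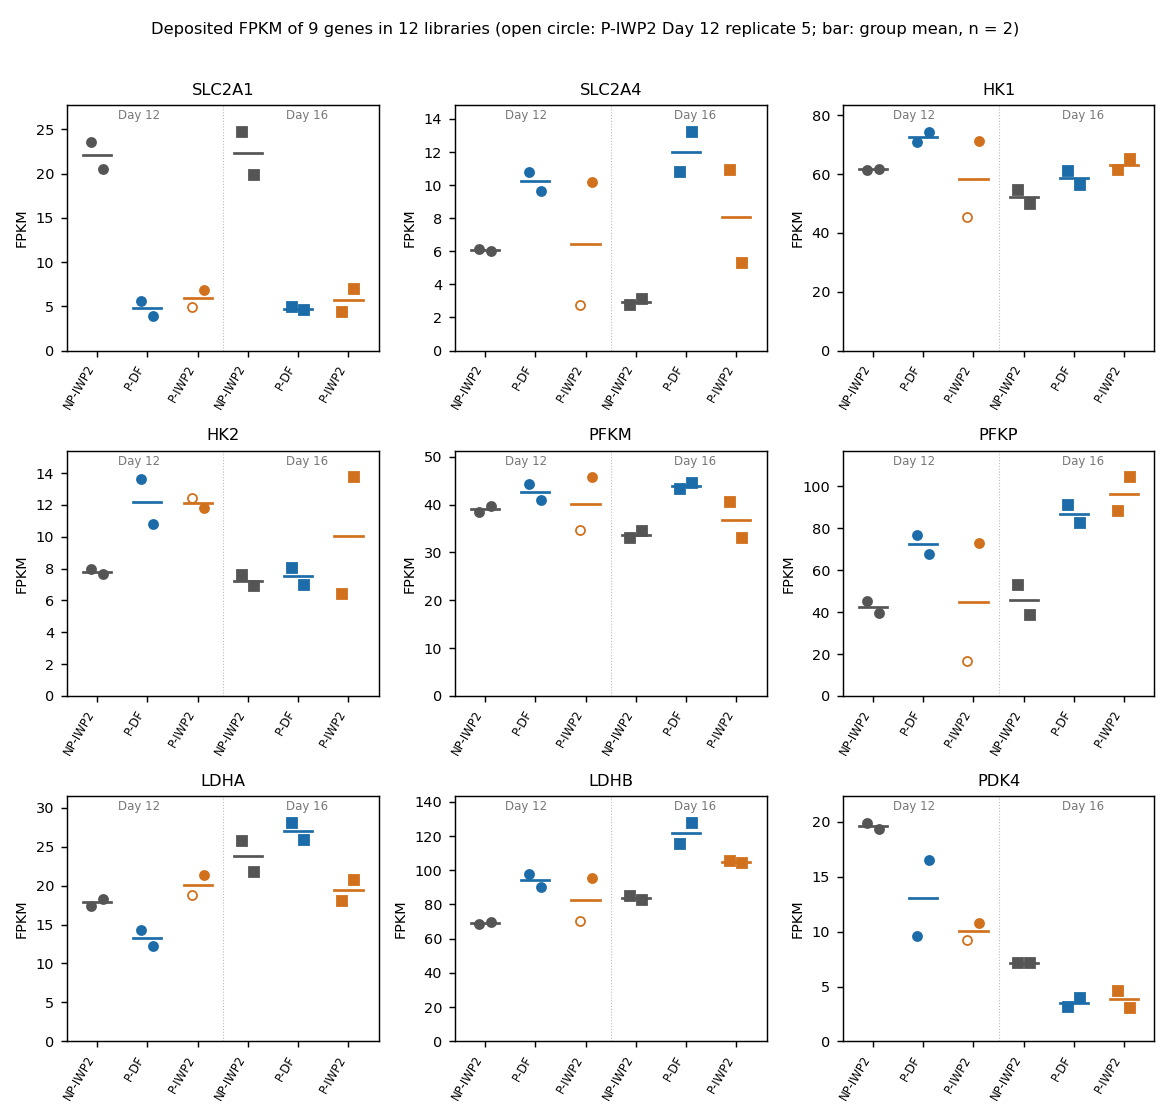
Deposited FPKM (linear axis from 0) of the 9 measured genes in the 12 libraries, by culture and day; each point is a library, each bar the mean of 2 libraries, and the open circle is P-IWP2 Day 12 replicate 5. SLC2A1 lies at 19.9 to 24.7 FPKM in the 4 static libraries and at 3.94 to 6.96 FPKM in the 8 passaged ones, and PDK4 is lower on Day 16 than on Day 12 in each kind of culture.

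SLC2A4 went the other way in P-DF cells. It (ENSG00000181856, chr17:7281718-7288257, plus strand) encodes GLUT4, the insulin-regulated transporter of heart, skeletal muscle and fat. It measured 6.14 and 6.01 FPKM in NP-IWP2, 10.8 and 9.66 FPKM in P-DF, and 2.77 and 10.2 FPKM in P-IWP2 on Day 12. Day 16 levels were 2.73 and 3.10 FPKM in NP-IWP2, 10.8 and 13.2 FPKM in P-DF, and 10.9 and 5.27 FPKM in P-IWP2. P-DF libraries were above the static ones on both days without overlap, and the P-IWP2 libraries were above them on Day 16 only, with the low Day 12 value in replicate 5. SLC2A4 rose in P-DF on Day 16 by 2.28 ± 0.55 on the log2 scale (edgeR, adjusted p = 0.0250) and over both days by 1.54 ± 0.26 (adjusted p = 0.00167). The Day 16 call in P-DF was lost without any 1 of the 4 libraries compared (2.11 to 2.43, adjusted p = 0.0836 to 0.139), and the call over both days was not. The Day 16 value of P-IWP2, 1.73 ± 0.55, missed the threshold with all libraries (edgeR, adjusted p = 0.0577) and passed it without replicate 5 (1.73 ± 0.24, adjusted p = 0.000113). GLUT4 is made by cardiomyocytes, and the cardiomyocyte marker sum on Day 12 was 5199 to 5884 FPKM in NP-IWP2 and 5715 to 5758 FPKM in P-DF. On Day 16 it was 3491 to 4356 FPKM in NP-IWP2, 8310 to 9019 FPKM in P-DF and 10748 to 10769 FPKM in P-IWP2. The part of the Day 16 difference in the result was not tested.

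Over both days, 8 of the 9 tested members were called in P-DF against NP-IWP2, where 33.5% of all tested genes were called. HK1, HK2, PFKM, PFKP, LDHB and SLC2A4 rose, and SLC2A1 and PDK4 fell, and LDHA was the member not called. Their median log2 fold change was 0.42, beside -0.0027 for all tested genes. The count was 8 with each of the 8 libraries left out in turn. In a model of all 12 libraries HK1, HK2 and PFKP were not called (adjusted p = 0.154, 0.133 and 0.0995). P-IWP2 against NP-IWP2 over both days called 2 members, SLC2A1 and PDK4, both lower, against 2.47% of all genes. Without replicate 5 it called 7 members, with HK1, LDHB, PFKM, PFKP and SLC2A4 added as higher, against 25.2% of all genes. With P-IWP2 Day 12 replicate 6 left out instead it called 1 member, which was lower, against 2.6% of all genes. The calls in P-IWP2 thus depended on which library of that pair was left out, and on libraries outside it. The SLC2A1 call was lost without NP-IWP2 Day 16 replicate 1, and the PDK4 call without any 1 NP-IWP2 library.

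Within a day fewer members were called with all libraries. On Day 12 SLC2A1 alone was called in P-DF (4.01% of all genes) and in P-IWP2 (1.66% of all genes). On Day 16 SLC2A1, SLC2A4 and LDHB were called in P-DF (15.3% of all genes), and SLC2A1 alone in P-IWP2 (17.1% of all genes). With libraries scaled to total counts PDK4 was called lower as well in both, which made 2 members higher and 2 lower in P-DF. Without replicate 5 the counts on Day 12 were 4 members in P-DF (23.0% of all genes) and 3 in P-IWP2 (16.0% of all genes). On Day 16 they were 8 in P-DF (34.1% of all genes) and 8 in P-IWP2 (36.4% of all genes). SLC2A1 was lower in all 4 of these, and LDHB and PFKP were higher in all 4. In P-IWP2 on Day 12 this rests on replicate 6 alone. With replicate 5 as the lone library instead, the members called there were all lower.

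**Figure D2:**
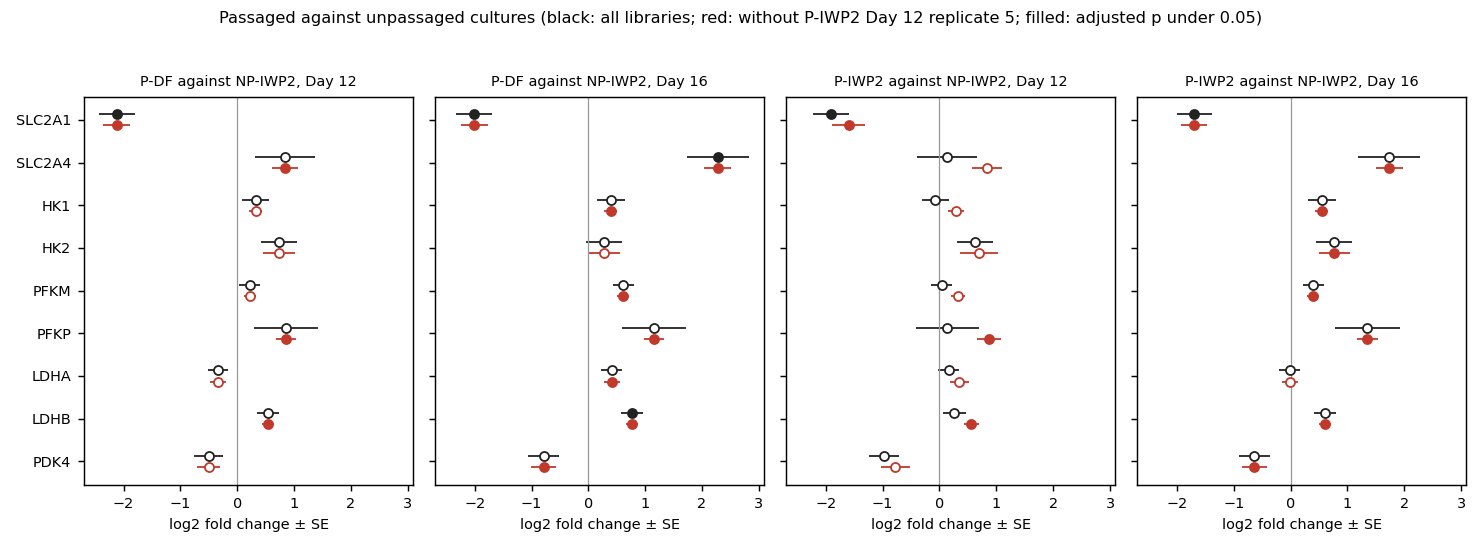
log2 fold change with its SE (horizontal axis) of 9 genes in P-DF and P-IWP2 against NP-IWP2 on each day; black points use all libraries, red points leave out P-IWP2 Day 12 replicate 5, and filled points have an adjusted p under 0.05. SLC2A1 is filled in all 4 panels in both colours, at -2.12 to -1.60, and the error bars of PFKP and SLC2A4 shorten most without replicate 5.

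Of the other 11 listed genes of the glucose transporter families, which include the inositol transporter SLC2A13, 10 were tested. Their calls after passaging were mostly lower. In P-DF over both days SLC2A11 and SLC5A1 rose and SLC2A2, SLC2A5, SLC2A6, SLC2A10 and SLC2A13 fell, beside 33.5% of all genes called, with a list median of -0.43 beside -0.0027 for all genes. The SLC2A11 call was lost with total-count scaling (edgeR, adjusted p = 0.114). SLC2A3, the high-affinity neuronal and embryonic transporter GLUT3, differed by day rather than by culture. Its levels were 43.3 to 60.8 FPKM in the 6 Day 12 libraries and 16.4 to 26.5 FPKM in the 6 Day 16 libraries, without overlap. In P-DF SLC2A3 fell from Day 12 to Day 16 by 1.46 ± 0.21 on the log2 scale (edgeR, adjusted p = 0.00300).

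SLC2A12 rose with day after passaging and fell with day without it. SLC2A12, which encodes the insulin-responsive transporter GLUT12, measured 2.24 and 1.89 FPKM in NP-IWP2, 1.43 and 1.45 FPKM in P-DF, and 1.61 and 1.70 FPKM in P-IWP2 on Day 12. On Day 16 it measured 0.79 and 0.93 FPKM in NP-IWP2, 3.87 and 4.56 FPKM in P-DF, and 6.40 and 5.38 FPKM in P-IWP2. Static cells were highest on Day 12 and lowest on Day 16, and P-IWP2 was above P-DF on both days. From Day 12 to Day 16 the log2 fold change was -1.16 ± 0.18 in NP-IWP2 (edgeR, adjusted p = 0.0198), 1.80 ± 0.17 in P-DF (adjusted p = 0.000783) and 2.23 ± 0.18 in P-IWP2 (adjusted p = 0.000420). The call of a fall in NP-IWP2 was lost without NP-IWP2 Day 16 replicate 1. Of its 5572 exon bases, 2852 lie under TBPL1 on the opposite strand, and the strand setting of the counting is not given, so its level is uncertain. The interaction of passaging and day for SLC2A12 was 2.96 ± 0.25 in P-DF (edgeR, adjusted p = 0.00570) and 3.39 ± 0.25 in P-IWP2 (adjusted p = 0.00315), on the log2 scale. The P-DF term was 2.82 without NP-IWP2 Day 12 replicate 1, where the call was lost (adjusted p = 0.0849). SLC5A1, the sodium-coupled glucose transporter SGLT1, was at 1.74 to 2.94 FPKM in 5 of the Day 12 libraries and at 0.06 FPKM in replicate 5. By Day 16 it measured 5.35 and 5.57 FPKM in NP-IWP2, 19.7 and 22.1 FPKM in P-DF, and 27.4 and 25.2 FPKM in P-IWP2.

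**Figure D3:**
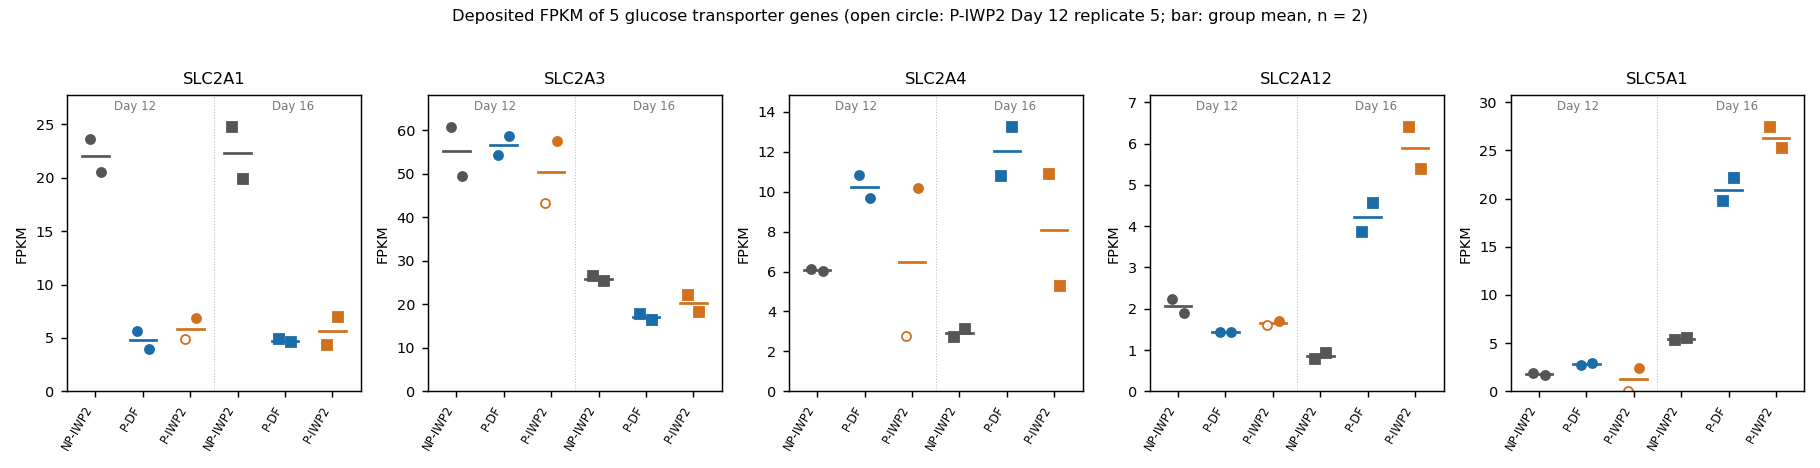
Deposited FPKM (linear axis from 0, scaled to each gene) of 5 glucose transporter genes in the 12 libraries; points are libraries, bars are means of 2, and the open circle is P-IWP2 Day 12 replicate 5. SLC2A1 separates static from passaged cells on both days, SLC2A3 separates the days at 43.3 to 60.8 against 16.4 to 26.5 FPKM, and SLC2A12 is highest in static cells on Day 12 and in P-IWP2 on Day 16.

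HK1 varied less than HK2. HK1 (ENSG00000156515, chr10:69269984-69401884, plus strand), the housekeeping hexokinase, was the higher of the pair per exon length in every library. On Day 12 it measured 61.6 and 61.9 FPKM in NP-IWP2, 71.0 and 74.4 FPKM in P-DF, and 45.6 and 71.2 FPKM in P-IWP2. The Day 16 levels were 54.5 and 49.9 FPKM in NP-IWP2, 61.2 and 56.2 FPKM in P-DF, and 61.3 and 65.1 FPKM in P-IWP2. HK1 spanned 1.63-fold from the lowest library, replicate 5, to the highest, and its P-DF libraries were above the static ones on each day. Over both days HK1 rose in P-DF by 0.36 ± 0.08 on the log2 scale (edgeR, adjusted p = 0.00657), and by 0.20 with total-count scaling (adjusted p = 0.0476).

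HK2 (ENSG00000159399, chr2:74834127-74893359, plus strand) is the hexokinase of insulin-sensitive muscle and of many tumours. It measured 7.96 and 7.63 FPKM in NP-IWP2, 13.6 and 10.8 FPKM in P-DF, and 12.5 and 11.8 FPKM in P-IWP2 on Day 12. For Day 16 the levels were 7.60 and 6.89 FPKM in NP-IWP2, 8.06 and 6.96 FPKM in P-DF, and 6.40 and 13.7 FPKM in P-IWP2. All 4 passaged libraries were above the static ones on Day 12, and on Day 16 each passaged group overlapped them. HK2 rose in P-DF over both days by 0.51 ± 0.13 on the log2 scale (edgeR, adjusted p = 0.0120), a call that was lost with libraries scaled to total counts (0.35, adjusted p = 0.0713). Of the 75-base stretches of its exons, 4.63% occur elsewhere in the hg38 genome.

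Both phosphofructokinases rose in P-DF over both days. PFKM (ENSG00000152556, chr12:48105139-48146404, plus strand) encodes the muscle subunit. Its levels on Day 12 were 38.4 and 39.6 FPKM in NP-IWP2, 44.3 and 41.0 FPKM in P-DF, and 34.7 and 45.7 FPKM in P-IWP2. On Day 16 PFKM was at 33.0 and 34.4 FPKM in NP-IWP2, 43.3 and 44.5 FPKM in P-DF, and 40.6 and 32.9 FPKM in P-IWP2. It was the steadiest of the 9 genes, with 1.39-fold between the extreme libraries, and P-DF lay above NP-IWP2 on each day. In P-DF over both days PFKM rose by 0.42 ± 0.09 on the log2 scale (edgeR, adjusted p = 0.00787), and by 0.26 with total-count scaling (adjusted p = 0.0271).

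PFKP (ENSG00000067057, chr10:3066333-3137718, plus strand) encodes the platelet subunit, which many tissues express. Day 12 levels were 45.1 and 39.7 FPKM in NP-IWP2, 76.9 and 67.7 FPKM in P-DF, and 16.8 and 73.0 FPKM in P-IWP2. Day 16 levels were 52.8 and 38.5 FPKM in NP-IWP2, 91.3 and 82.7 FPKM in P-DF, and 88.4 and 104 FPKM in P-IWP2. Of the 8 passaged libraries, 7 were above all 4 static ones, and replicate 5 was the lowest of the 12. PFKP rose in P-DF over both days by 1.01 ± 0.14 on the log2 scale (edgeR, adjusted p = 0.000479). The Day 16 value of P-IWP2, 1.35 ± 0.56, was not called with all libraries (edgeR, adjusted p = 0.128) and was called without replicate 5 (1.35 ± 0.18, adjusted p = 9.25e-05). PFKP was low in the library whose cardiomyocyte marker sum was also the lowest, 2443 FPKM, and the part of cell makeup in its level was not tested.

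Enzymes that set fructose 2,6-bisphosphate, the activator of phosphofructokinase, moved in opposite directions. PFKFB2, the heart form, measured 2.16 and 2.35 FPKM in NP-IWP2, 3.27 and 3.79 FPKM in P-DF, and 4.19 and 3.10 FPKM in P-IWP2 on Day 16. PFKFB3, the inducible form, measured 17.3 and 17.2 FPKM, 7.54 and 7.51 FPKM, and 9.82 and 10.5 FPKM in the same order. On that day the passaged libraries were all above the static ones for PFKFB2 and all below them for PFKFB3. In P-DF on Day 16 PFKFB2 rose by 0.88 ± 0.23 on the log2 scale (edgeR, adjusted p = 0.0338) and PFKFB3 fell by 0.96 ± 0.14 (adjusted p = 0.00258). The PFKFB2 call was lost without any 1 of the 8 NP-IWP2 and P-DF libraries (0.75 to 0.99, adjusted p = 0.0550 to 0.193), and the PFKFB3 call was not lost without any library. Of the 11 tested genes of flux regulation and gluconeogenesis, PFKFB2 was the 1 that rose in P-DF over both days, and FBP1, PC, PCK1 and PFKFB3 fell, beside 33.5% of all genes called, for a list median of -0.30. With total-count scaling G6PC3 was called lower too (edgeR, adjusted p = 0.0297).

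Of the shared steps of glycolysis, 8 enzyme genes rose in P-DF. Of 18 other glycolytic enzymes 15 were tested, and over both days ALDOA, ENO3, GAPDH, GPI, PGAM1, PGK1, PKM and TPI1 rose in P-DF, with a list median log2 fold change of 0.38. ALDOC and HKDC1 fell, and 33.5% of all genes were called. With total-count scaling PGAM1 was not called (edgeR, adjusted p = 0.209), and PFKL and ENO1 were called lower (adjusted p = 0.0178 and 0.0489). On Day 16 alone ENO2 rose and ADPGK, HKDC1 and PFKL fell. HKDC1, a hexokinase family gene, was at 1.66 and 0.94 FPKM in NP-IWP2 on Day 16 and at or under 0.01 FPKM in the passaged libraries of that day. ENO3, the muscle enolase, was at 41.6 to 65.3 FPKM in 5 Day 12 libraries and 21.1 FPKM in replicate 5. On Day 16 ENO3 measured 50.3 and 45.8 FPKM in NP-IWP2, 104 and 105 FPKM in P-DF, and 106 and 89.4 FPKM in P-IWP2, with all passaged libraries above the static ones. ENO3 rose from Day 12 to Day 16 in P-IWP2 by 1.53 ± 0.45 on the log2 scale (edgeR, adjusted p = 0.0343) and by 0.88 ± 0.15 without replicate 5. This call was lost without any 1 of the 10 libraries outside P-IWP2 Day 12 (1.46 to 1.59, adjusted p = 0.0516 to 0.119).

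PGAM2 (ENSG00000164708, chr7:44062727-44065567, minus strand), the muscle phosphoglycerate mutase, was listed at 0 counts in all 12 libraries and was not tested. All 837 of its exon bases lie under exons of DBNL on the opposite strand, and DBNL had 13043 counts in sum. In the same table all 13 protein-coding genes whose exons lie wholly under opposite-strand exons were at 0, against 13.1% of 10507 protein-coding genes without such overlap. The 0 therefore does not separate a silent gene from reads that were not assigned, and no fold or floor is given for PGAM2. PGAM1, the ubiquitous form, was at 31.6 to 68.2 FPKM, and 61.7% of its 75-base exon stretches occur elsewhere in the genome, so its level is uncertain.

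LDHB had a higher FPKM than LDHA in every library. LDHA and LDHB encode the M and H subunits, and LDHB predominates in the heart. Their start regions are shown with those of SLC2A1 and PDK4, because LDHA and SLC2A1 are textbook targets of hypoxia-inducible factors and the 4 windows differ in the letters of that motif. Each is the 250 bases before the annotated start in RefSeq on GRCh38.p14, written 5′ to 3′ along the gene's strand. Capitals mark CACGTG (the E-box), ACGTG or GCGTG (the core of hypoxia response elements) and GGGCGG (the GC box) on either strand, and CACGTG contains ACGTG on both strands.
LDHA, chr11:18394313-18394562, plus strand: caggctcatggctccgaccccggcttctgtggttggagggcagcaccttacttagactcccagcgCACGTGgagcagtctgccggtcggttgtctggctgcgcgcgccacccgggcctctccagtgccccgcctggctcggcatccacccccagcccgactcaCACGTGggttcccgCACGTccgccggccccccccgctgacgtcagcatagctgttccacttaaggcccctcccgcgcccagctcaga
LDHB, chr12:21657843-21658092, minus strand: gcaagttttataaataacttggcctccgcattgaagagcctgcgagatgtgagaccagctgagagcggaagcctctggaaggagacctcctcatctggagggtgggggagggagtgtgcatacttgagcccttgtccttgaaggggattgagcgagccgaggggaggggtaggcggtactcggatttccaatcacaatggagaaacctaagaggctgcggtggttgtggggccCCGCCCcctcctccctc
SLC2A1, chr1:42958869-42959118, minus strand: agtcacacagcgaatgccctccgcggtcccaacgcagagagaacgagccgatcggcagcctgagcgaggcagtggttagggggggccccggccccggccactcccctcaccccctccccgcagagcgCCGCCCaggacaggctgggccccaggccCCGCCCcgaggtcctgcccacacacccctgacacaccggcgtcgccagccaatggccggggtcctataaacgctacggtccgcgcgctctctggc
PDK4, chr7:95596517-95596766, minus strand: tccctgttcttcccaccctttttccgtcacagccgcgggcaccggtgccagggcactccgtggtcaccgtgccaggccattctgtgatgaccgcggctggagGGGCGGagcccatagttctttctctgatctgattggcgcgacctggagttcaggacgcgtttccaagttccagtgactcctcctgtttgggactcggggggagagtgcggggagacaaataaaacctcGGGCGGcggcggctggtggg
The LDHA window holds 2 E-boxes, which together with the other matches give 5 matches of the hypoxia core, and no GC box. LDHB has 1 GC box, SLC2A1 has 2 and PDK4 has 2, and none of these 3 windows holds the E-box or the hypoxia core in its letters. Of 35116 RefSeq promoters of this length, 6.34% hold CACGTG, 43.2% the hypoxia core and 42.6% the GC box. LDHA has 2 promoters in RefSeq, of which the first is shown, and the other holds 4 GC boxes, 1 match of the hypoxia core and no E-box. Over the 9 members with an entry there were 26 promoters, of which 2 held the E-box, 9 the hypoxia core and 13 the GC box. A match describes letters in a window and not a bound site.

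LDHA (ENSG00000134333, chr11:18394560-18408425, plus strand) changed most within P-DF. On Day 12 it measured 17.4 and 18.3 FPKM in NP-IWP2, 14.3 and 12.2 FPKM in P-DF, and 18.8 and 21.3 FPKM in P-IWP2. On Day 16 it measured 25.8 and 21.8 FPKM in NP-IWP2, 28.1 and 25.9 FPKM in P-DF, and 18.1 and 20.7 FPKM in P-IWP2. P-DF was the lowest group on Day 12 and the highest on Day 16, and P-IWP2 overlapped between the days. LDHA rose from Day 12 to Day 16 in P-DF by 1.28 ± 0.19 on the log2 scale (edgeR, adjusted p = 0.00339). The difference between this change and that in NP-IWP2 was 0.75 ± 0.26, which missed the threshold with all libraries (edgeR, adjusted p = 0.272) and passed it without replicate 5 (0.75 ± 0.20, adjusted p = 0.0375).

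LDHB (ENSG00000111716, chr12:21635342-21757857, minus strand) was higher in FPKM after passaging. Its levels on Day 12 were 68.5 and 69.7 FPKM in NP-IWP2, 98.0 and 90.3 FPKM in P-DF, and 70.4 and 95.3 FPKM in P-IWP2. On Day 16 they were 85.1 and 82.4 FPKM in NP-IWP2, 116 and 128 FPKM in P-DF, and 106 and 104 FPKM in P-IWP2. In FPKM all passaged libraries were above the static ones of the same day, replicate 5 by the least. With the TMM scaling of the fold changes, replicate 5 was at 57.8, below NP-IWP2 at 62.1 in both Day 12 libraries. With all libraries LDHB was not called in P-IWP2 against NP-IWP2, on either day or over both. LDHB rose in P-DF by 0.77 ± 0.20 on Day 16 (edgeR, adjusted p = 0.0297) and by 0.65 ± 0.09 over both days (adjusted p = 0.000419), on the log2 scale. The Day 16 call was lost without any 1 of the 4 NP-IWP2 or the 2 P-DF Day 16 libraries (0.68 to 0.85, adjusted p = 0.0578 to 0.181), and the call over both days was not. From Day 12 to Day 16 it rose in P-IWP2 by 0.73 ± 0.20 (edgeR, adjusted p = 0.0257), by 0.44 ± 0.14 without replicate 5 (adjusted p = 0.0319), and by 0.34 with libraries scaled to total counts, where the call was lost (adjusted p = 0.0899). That call was also lost without either P-IWP2 Day 16 library (0.68 and 0.78, adjusted p = 0.127 and 0.0575). Within its exons 997 of 2983 bases also lie under another gene on the same strand, ENSG00000285854, which had 10 counts in sum. Reads in those shared bases may not have been assigned to either gene, so the level of LDHB per exon length is uncertain.

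Genes of lactate and pyruvate transport were mostly higher in P-DF. Over both days 6 of 8 rose, BSG, EMB, MPC1, MPC2, SLC16A1 and SLC16A7, and SLC16A3 fell, beside 33.5% of all genes called, with a list median of 0.48. With total-count scaling 4 rose, and BSG and EMB were not called (edgeR, adjusted p = 0.177 and 0.129). MPC1 and MPC2 form the mitochondrial pyruvate carrier. SLC16A7 encodes MCT2, a high-affinity monocarboxylate importer, and measured 2.65 and 2.45 FPKM in NP-IWP2, 5.35 and 5.66 FPKM in P-DF, and 4.11 and 4.71 FPKM in P-IWP2 on Day 16. SLC16A3 encodes MCT4, the lactate exporter of glycolytic cells, and measured 4.72 and 5.36 FPKM in NP-IWP2, 1.93 and 1.55 FPKM in P-DF, and 3.67 and 2.02 FPKM in P-IWP2 on Day 12. On those days the passaged libraries lay wholly above the static ones for SLC16A7 and wholly below for SLC16A3. SLC16A7 rose in P-DF on Day 16 by 1.34 ± 0.22 on the log2 scale (edgeR, adjusted p = 0.00518), and SLC16A3 fell in P-DF on Day 12 by 1.44 ± 0.31 (adjusted p = 0.0387). The SLC16A7 call was lost without NP-IWP2 Day 16 replicate 2 or P-DF Day 16 replicate 4 (1.23 and 1.29, adjusted p = 0.0536 and 0.0509). The SLC16A3 call was lost without any 1 of the 10 libraries outside P-IWP2 Day 12 (-1.64 to -1.28, adjusted p = 0.0502 to 0.256).

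PDK4 fell from Day 12 to Day 16 in all 3 kinds of culture and was lower after passaging over both days. It (ENSG00000004799, chr7:95583499-95596516, minus strand) encodes the pyruvate dehydrogenase kinase that rises in heart and muscle when fatty acids are burned. Day 12 levels were 19.9 and 19.4 FPKM in NP-IWP2, 9.59 and 16.6 FPKM in P-DF, and 9.26 and 10.8 FPKM in P-IWP2. By Day 16 the levels were 7.11 and 7.19 FPKM in NP-IWP2, 3.12 and 3.92 FPKM in P-DF, and 4.63 and 3.03 FPKM in P-IWP2. Static libraries were above passaged ones on each day, and every Day 12 library was above every Day 16 library. From Day 12 to Day 16 the log2 fold change was -1.35 ± 0.26 in NP-IWP2 (edgeR, adjusted p = 0.0391), -1.63 ± 0.27 in P-DF (adjusted p = 0.00619) and -1.0 ± 0.27 in P-IWP2 (adjusted p = 0.0247). Without replicate 5 the value in P-IWP2 was -1.21 ± 0.26. The call in NP-IWP2 was lost without any of its 4 libraries or either P-DF Day 16 library (-1.39 to -1.30, adjusted p = 0.0738 to 0.271). The call in P-DF was lost without P-DF Day 16 replicate 3 (-1.47, adjusted p = 0.0627) and that in P-IWP2 without P-IWP2 Day 16 replicate 6 (-0.78, adjusted p = 0.167). Over both days PDK4 fell by 0.64 ± 0.16 in P-DF (edgeR, adjusted p = 0.0116) and by 0.80 ± 0.16 in P-IWP2 (adjusted p = 0.0435, and 0.00618 without replicate 5). The P-DF call over both days held without each library, and the P-IWP2 call was lost without any NP-IWP2 library or either replicate 6 of P-IWP2 (log2 fold change -0.86 to -0.74, adjusted p = 0.0643 to 0.146). The 5 endothelial markers summed to 53.6 to 54.0 FPKM on Day 16 against 183 to 202 FPKM on Day 12 in NP-IWP2, and to 14.8 to 16.8 against 163 to 226 FPKM in P-DF, with KDR, which early heart and mesoderm progenitors also express, giving most of each sum. PECAM1 and CDH5 were at 1.84 to 2.5 and 4.73 to 6.05 FPKM in NP-IWP2 on Day 12, at 0.11 to 0.20 and 0.14 to 0.29 FPKM on Day 16, and at or under 0.07 FPKM in all 4 P-DF libraries. TEK was at 10.05 to 11.5 FPKM in NP-IWP2 on both days and at or under 0.10 FPKM in P-DF, and EGFL7 was at 3.88 to 6.96 FPKM in NP-IWP2 and at 1.39 to 2.33 FPKM in P-DF. Of the 5 markers, PECAM1, CDH5, TEK and EGFL7 fell in P-DF over both days and KDR was not called (-0.47, edgeR, adjusted p = 0.237). In P-IWP2 the 5 markers summed to 21.7 to 236 FPKM on Day 12 and to 12.2 to 14.6 FPKM on Day 16. PDK4 in those 2 Day 12 libraries was at 9.26 and 10.8 FPKM. The part of endothelial cells in the PDK4 result was not tested.

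Between Day 12 and Day 16, PDK4 was the 1 member called in NP-IWP2, where 1.98% of all genes were called. PDK4 and LDHA were called in P-DF (13.6% of all genes), and PDK4 and LDHB in P-IWP2 (27.0% of all genes). Without replicate 5 there were 4 members called in NP-IWP2 (18.3% of all genes), 5 in P-DF (30.8% of all genes) and 3 in P-IWP2 (25.1% of all genes). PDK4 fell and LDHB rose in each of these, and SLC2A4 fell in NP-IWP2.

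**Figure D4:**
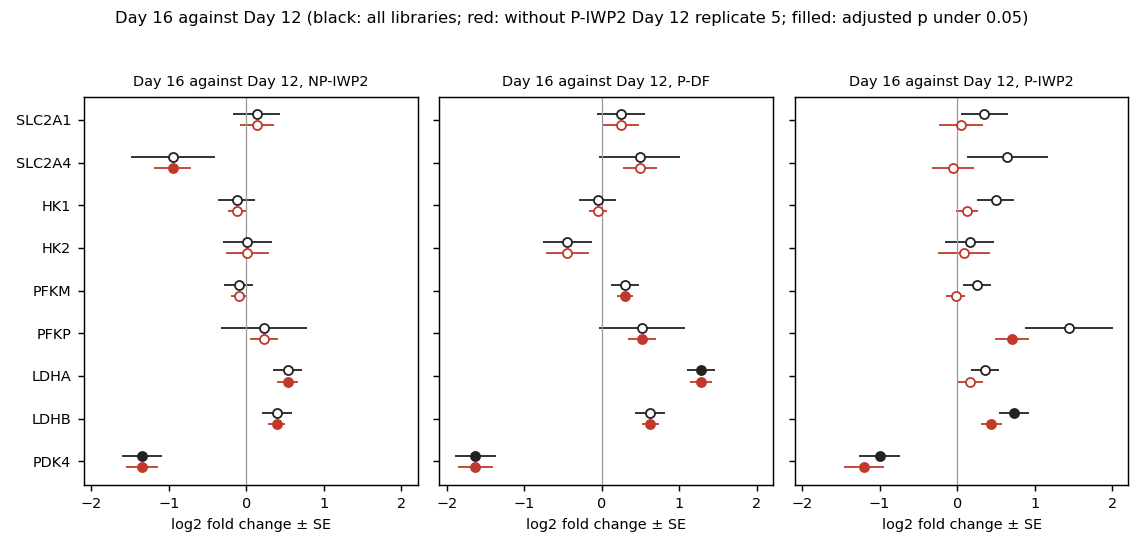
log2 fold change with its SE (horizontal axis) of 9 genes on Day 16 against Day 12 in each kind of culture; black points use all libraries, red points leave out P-IWP2 Day 12 replicate 5, and filled points have an adjusted p under 0.05. PDK4 is filled in all 3 panels, at -1.35, -1.63 and -1.0 with all libraries, and LDHA reaches 1.28 in P-DF.

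The complex that PDK4 inhibits had higher transcript levels in P-DF. Of 11 genes of the pyruvate dehydrogenase complex and its other kinases and phosphatases, 9 rose in P-DF over both days and none fell, beside 33.5% of all genes called, with a list median of 0.48 beside -0.0027 for all genes. With total-count scaling 7 rose, and PDP1 and PDPR were not called (edgeR, adjusted p = 0.242 and 0.163). By Day 16 alone PDHA1, PDK2, PDK3 and PDPR had risen in P-DF, and DLD, PDHA1, PDHB and PDK3 in P-IWP2. PDHA1, the catalytic E1 alpha subunit, measured 36.3 and 31.9 FPKM in NP-IWP2, 53.8 and 54.1 FPKM in P-DF, and 61.6 and 59.3 FPKM in P-IWP2 on Day 16, without overlap of passaged and static libraries. PDHA1 rose in P-DF on Day 16 by 0.89 ± 0.20 on the log2 scale (edgeR, adjusted p = 0.0207). The call was lost without any 1 of the 4 libraries compared (0.75 to 1.05, adjusted p = 0.0571 to 0.154). PDK1, the kinase induced by hypoxia, was at 73.8 to 89.6 FPKM in 5 Day 12 libraries, 32.9 FPKM in replicate 5 and 44 to 56.9 FPKM on Day 16.

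Ratios of the muscle or heart form to the other form were taken per library from FPKM, so that they compare levels per exon length. The ratio of SLC2A4 to SLC2A1 was 0.260 and 0.292 in NP-IWP2, 1.92 and 2.45 in P-DF, and 0.562 and 1.49 in P-IWP2 on Day 12. On Day 16 it was 0.110 and 0.156 in NP-IWP2, 2.20 and 2.88 in P-DF, and 2.49 and 0.757 in P-IWP2. SLC2A1 exceeded SLC2A4 in all 4 static libraries and in 2 P-IWP2 libraries, and SLC2A4 exceeded SLC2A1 in the other 6 passaged ones. The log2 ratio was 3.05 higher in the 8 passaged than in the 4 static libraries, which gave the smallest p that 225 arrangements within days allow (exact permutation test, two-sided, p = 0.00444). Adjusted over the 20 ratio tests it was 0.0889, and no ratio test passed 0.05.

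The ratio of LDHB to LDHA stayed above 1 throughout, though the level of LDHB is uncertain because of its exon overlap. It was 3.93 and 3.82 in NP-IWP2, 6.86 and 7.39 in P-DF, and 3.76 and 4.47 in P-IWP2 on Day 12. Day 16 ratios were 3.30 and 3.79 in NP-IWP2, 4.11 and 4.94 in P-DF, and 5.85 and 5.03 in P-IWP2. P-DF had the highest ratio on Day 12 and P-IWP2 on Day 16, and replicate 5 lay at the static level. In passaged against static libraries the log2 ratio was 0.48 higher (exact permutation test, two-sided, p = 0.0356, adjusted p = 0.123). For P-DF alone the difference was 0.61, with the smallest p that 36 arrangements allow (exact permutation test, p = 0.0556, adjusted p = 0.123).

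With all libraries no ratio of the other pairs passed the threshold after adjustment, by day or by passaging. The passaged against static log2 difference was 0.75 for ENO3 to ENO1 (exact permutation test, two-sided, p = 0.0622, adjusted p = 0.124). For PFKM to PFKP it was -0.47 (exact permutation test, two-sided, p = 0.24, adjusted p = 0.370). ENO3 to ENO1 was 0.341 to 0.889 on Day 12 and 0.686 to 2.10 on Day 16, a log2 difference of 0.98 at the smallest p of 216 arrangements (exact permutation test, two-sided, p = 0.00926, adjusted p = 0.0926). In the passaged libraries of Day 16 ENO3 exceeded ENO1, at ratios of 1.19 to 2.10. PFKM to PFKP was 2.07 in replicate 5 and 0.315 to 0.999 in the other 11 libraries, and its log2 value was 0.70 lower on Day 16 (exact permutation test, two-sided, p = 0.0185, adjusted p = 0.123). HK2 to HK1 stayed between 0.104 and 0.273, and its 4 contrasts had unadjusted p of 0.262 to 0.500 (exact permutation tests). PGAM2 to PGAM1 could not be formed.

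**Figure D5:**
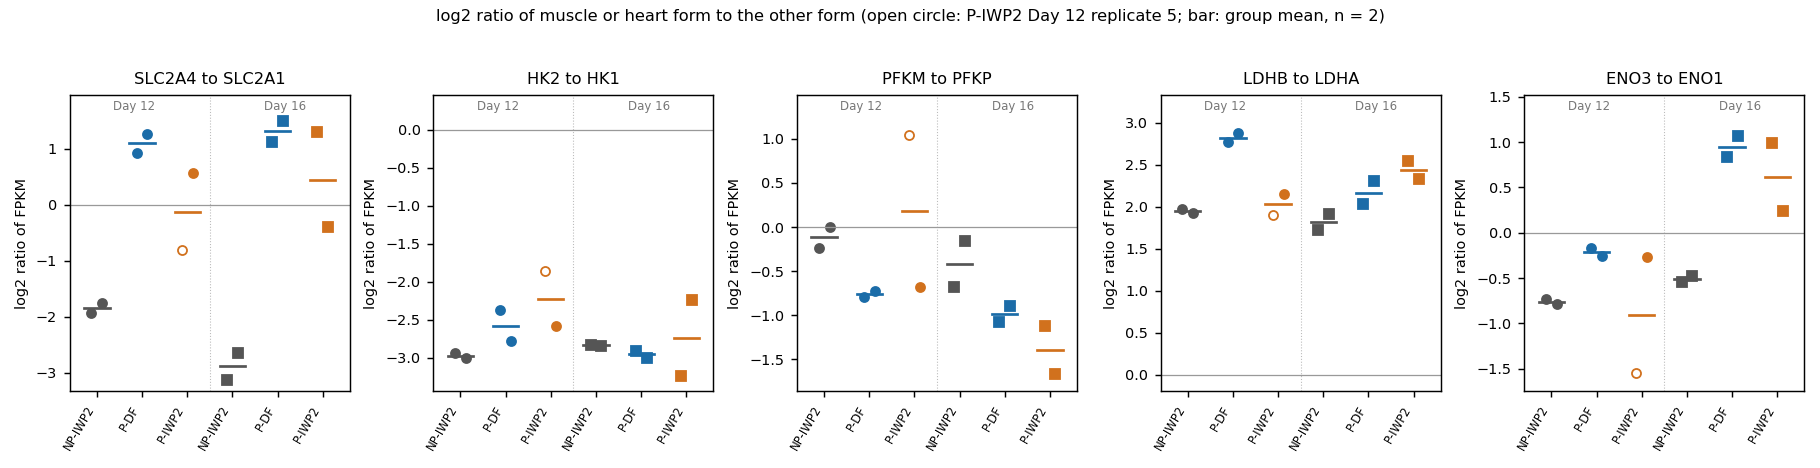
log2 ratio of FPKM (vertical axis, 0 is equal level per exon length) for 5 pairs of a muscle or heart form to the other form, in the 12 libraries; points are libraries, bars are means of 2, and the open circle is P-IWP2 Day 12 replicate 5. The SLC2A4 to SLC2A1 ratio is below 0 in all 4 static libraries, LDHB to LDHA is above 0 in all 12, and HK2 to HK1 is below 0 in all 12.

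Passaging and day did not combine in a detectable way for any member with all libraries. The interaction term, the Day 16 minus Day 12 difference of the passaging effect, called 0 of 9 members in P-DF (0.482% of all genes) and 0 in P-IWP2 (1.84% of all genes). Without replicate 5 it called 2 members in P-DF, SLC2A4 and LDHA (8.09% of all genes), and 0 in P-IWP2 (8.33% of all genes). SLC2A4 had an interaction of 1.44 ± 0.75 in P-DF with all libraries (edgeR, adjusted p = 0.478) and of 1.44 ± 0.32 without replicate 5 (adjusted p = 0.0174). Between those days its static level went from 6.01 to 6.14 FPKM to 2.73 to 3.10 FPKM, and its P-DF level from 9.66 to 10.8 FPKM to 10.8 to 13.2 FPKM.

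IWP2 given after passaging called no gene, member or other, at an adjusted p under 0.05 in edgeR (0.0% of all genes, with and without replicate 5). At an unadjusted p under 0.05 there were 1032 of 19505 tested genes with all libraries, near the share that this threshold passes where nothing differs. DESeq2 called 4 genes. Without P-IWP2 Day 12 replicate 6 some genes were called, but no member. The edgeR fit without a filter on low counts called 1003 genes, SLC2A4 among them as lower in P-IWP2 and no other member. The 9 members had log2 differences between P-IWP2 and P-DF of -0.63 to 0.26. A p that misses the threshold does not show that the cultures were alike.

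Regulators known to act on these genes were measured beside them. EPAS1, which encodes HIF-2 alpha and is abundant in endothelium and stroma, was at 10.9 and 10.4 FPKM in NP-IWP2 on Day 12 and 23.9 and 22.5 FPKM on Day 16. It was at 0.21 to 0.61 FPKM in the passaged libraries other than replicate 5, which had 8.88 FPKM. EPAS1 fell in P-DF on Day 16, with a log2 fold change of -5.14 ± 0.98 (edgeR, adjusted p = 0.00949). The call was lost without either P-DF Day 16 library (-5.28 and -5.01, adjusted p = 0.0942 and 0.0907). HIF1A, which encodes HIF-1 alpha, stayed between 58.6 and 85.7 FPKM. Of 13 regulators, ESRRA, MEF2A, PPARA, PPARD and PPARGC1A rose and EPAS1 and MYC fell in P-DF over both days, beside 33.5% of all genes called, for a list median of 0.15. With total-count scaling PPARA and PPARD were not called (edgeR, adjusted p = 0.121 and 0.287), and FOXO3 and NR3C1 were called lower (adjusted p = 0.0341 and 0.0269). Of 8 tested hypoxia response genes outside glycolysis, BNIP3 and KDM3A rose and NDRG1 and P4HA1 fell in P-DF over both days, beside the same 33.5%. With total-count scaling BNIP3 and KDM3A were not called (edgeR, adjusted p = 0.0700 and 0.281) and EGLN3 was called lower (adjusted p = 0.0473).

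For each member the genes whose log2(FPKM + 1) ran most like it over the 12 libraries were sought among 12517 genes, as a description. SLC2A1 was nearest to AFAP1L2 (Pearson r = 0.983), FMO1 (0.978) and APOA2 (0.976), and APOA2 encodes a liver apolipoprotein. SLC2A4 was nearest to LRRC39 (0.982), QKI (0.976) and ADSS1 (0.970), and LRRC39 encodes a protein of the sarcomere's M-band. Genes near PFKP were EFHD1 (0.989) and NEXN (0.985), and LDHB was nearest to UBA3 (0.988), DCAF6 (0.981) and PCBD1 (0.968). HK1 was nearest to ECI1 (0.971), ATP5MC1 (0.967) and OGDH (0.959), all of which encode mitochondrial enzymes or subunits. PDK4 was nearest to CTSL, KLHL36 and NUP50 (0.979 each), and PFKM to UBR7 (0.947), NNT-AS1 (0.940) and VEGFB (0.937). The nearest genes to LDHA were HAUS2 (0.908), SERBP1 (0.900) and MYCN (0.887), and those to HK2 were NPTN (0.870), PPP1R12A (0.861) and EFR3B (0.860). The points of each correlation are 12 libraries of 6 groups and share any difference between groups. Among the members the highest correlation was between SLC2A4 and PFKM (0.905), and the lowest was between LDHB and PDK4 (-0.782).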

How the data were processed

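Bulk RNA-seq was made from H1 cells in 3 kinds of culture, with 2 libraries per group and 14885589 to 19176239 counts per library. Per the labels, the tools were cutadapt 1.9.1, HISAT2 2.0.1, HTSeq 0.6.1 and DESeq2, with hg38. The strand setting and annotation release are not given in the sources used here. The authors deposited raw counts per gene, which were tested, and FPKM scaled to total counts and exon length, which give the levels. The exon size matched GENCODE v44 for 97.5% of genes and 8 of the 10 members.

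Counts were fitted with edgeR 4.0.16 (TMM, quasi-likelihood) after its expression filter over 12 libraries, which left 19505 genes. Comparisons within a day, between days and their interaction used all 6 groups, and comparisons over both days used 8 libraries with day as a term. P-values were adjusted by Benjamini-Hochberg at 0.05, and SE are those implied by the F statistic. Ratios used log2 of FPKM + 0.1 with two-sided exact permutation tests within days or cultures, adjusted over 20 tests. Alternatives were total-count scaling, no filter, DESeq2 1.42.0, limma 3.58.1 on log2(FPKM + 1), other libraries in the model, the replicate block, and each library left out. Both kinds of test were tested on simulated data. These held no library that stood apart like replicate 5, and the simulated counts used the same spread for every gene.

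Named genes were all members, listed genes past the threshold in a comparison described, isoform partners, and the 3 genes most correlated with each member, of which 1 is not reported here. The members and lists were chosen with earlier results of these data known, and the exon overlap and copy checks after seeing the data. RefSeq promoters matched all members but SLC2A4.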

Additional observations from a re-analysis of the deposited data

Results flagged for a closer look

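SLC2A12 was marked because the test of the difference itself, the interaction of passaging and day, passed the threshold in both passaged cultures. Its log2 value was 2.96 in P-DF (edgeR, adjusted p = 0.00570) and 3.39 in P-IWP2 (adjusted p = 0.00315), and these 2 terms share the NP-IWP2 libraries. From Day 12 to Day 16 it fell in NP-IWP2, from 1.89 and 2.24 FPKM to 0.79 and 0.93 FPKM (edgeR, adjusted p = 0.0198), a call lost without NP-IWP2 Day 16 replicate 1. It rose in P-DF (adjusted p = 0.000783) and in P-IWP2 (adjusted p = 0.000420), from 1.43 to 1.70 FPKM over those 4 libraries to 3.87 to 6.40 FPKM. The labels do not say whether libraries of different days came from the same culture, and they were tested as unpaired. SLC2A13, which encodes a proton-coupled inositol transporter of the same family, was marked by the same test in P-IWP2, at -1.19 (edgeR, adjusted p just under the threshold) and -1.14 without P-IWP2 Day 12 replicate 5 (adjusted p = 0.0170). That call was lost without any 1 of the 10 libraries outside P-IWP2 Day 12 (-1.36 to -1.03, adjusted p = 0.0733 to 0.196). SLC2A13 measured 2.13 and 1.72 FPKM in P-IWP2 on Day 12 and 0.88 and 0.67 FPKM on Day 16, against 2.07 and 1.68 FPKM and then 1.98 and 2.25 FPKM in NP-IWP2. Groups of 2 libraries are too small for a search for single outlying samples.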

How the results depend on the processing

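Over these alternatives no named log2 fold change reversed, 469 of its values kept their side of the threshold, 98 lost the call and 17 gained it. The number of members called moved by over 1.5 times as follows, and the cause was not tested. Without the filter on low counts it was 5 (P-DF Day 12), 6 (P-DF Day 16), 3 (P-IWP2 Day 12), 7 (P-IWP2 Day 16), 3, 4 and 5 (days in NP-IWP2, P-DF and P-IWP2), 1 (P-IWP2 against P-DF), and 1 and 2 (interactions in P-DF and P-IWP2). The shares of all genes called in those fits were, in that order, 7.7%, 11.6%, 3.79%, 12.3%, 5.07%, 9.5%, 15.9%, 2.67%, 2.79% and 6.77%. DESeq2 gave 5 for P-DF Day 16, 2 for P-IWP2 Day 12 and 4 for P-IWP2 Day 16, beside 16.1%, 3.13% and 18.6% of all genes. Total-count scaling and limma each gave 2 for P-IWP2 Day 16 (21.3% and 21.6% of all genes) and 1 for the days in P-IWP2 (37.8% and 39% of all genes). A model of the compared groups alone gave 7 and 8 for P-DF on Day 12 and Day 16, 0 and 6 for P-IWP2, 4, 7 and 0 for the days in NP-IWP2, P-DF and P-IWP2, and 2 for the interaction in P-DF. The shares of all genes there were, in that order, 28.1%, 35.8%, 0%, 26.2%, 26%, 32.2%, 0% and 12.2%. With all 12 libraries in the model P-DF over both days gave 5 (21.7% of all genes).

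Leaving out 1 library at a time gave 0 to 4 members for P-DF Day 12, 0 to 8 for P-DF Day 16, 0 to 5 for P-IWP2 Day 12 and 1 to 8 for P-IWP2 Day 16. It gave 0 to 4, 1 to 5 and 0 to 7 for the days in NP-IWP2, P-DF and P-IWP2, 8 to 8 for P-DF over both days, 0 to 7 for P-IWP2 over both days, 0 to 0 for P-IWP2 against P-DF, and 0 to 2 and 0 to 5 for the interactions. On Day 12 in P-DF, leaving out either NP-IWP2 or either P-DF library of that day gave 0 members, where the lone library is assumed to vary like the other groups, and leaving out either P-IWP2 Day 12 library gave 4. With 1 library left out, the SLC2A4 to SLC2A1 difference between days (-0.087 with all) ran from -0.37 to 0.20, and it turned positive without P-IWP2 Day 12 replicate 6 (0.14) and without P-IWP2 Day 16 replicate 6. The PFKM to PFKP difference of P-IWP2 from NP-IWP2 (-0.33 with all) ran from -0.76 to 0.094, the last without P-IWP2 Day 12 replicate 6. Without replicate 5 the passaged against static ratios of SLC2A4 to SLC2A1 (3.27), PFKM to PFKP (-0.69) and ENO3 to ENO1 (0.91) each reached an adjusted p of 0.0444 (exact permutation test).

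The replicate numbers 1 to 6 recur on both days, and the labels do not say whether a number marks the same culture. Differences between the 2 libraries of a group correlated little between the days (r = 0.0754 for NP-IWP2, -0.0015 for P-DF, -0.031 for P-IWP2). Each r rests on those 2 libraries per day, so it does not decide whether same-numbered libraries are paired. With the replicate block the days in NP-IWP2 gave 0 members and 154 genes, and the P-DF interaction gave 12 genes.

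Counts of called genes moved too, from 783 and 2975 (P-DF on Day 12 and Day 16), 323 and 3336 (P-IWP2), 386, 2654 and 5270 (days in NP-IWP2, P-DF and P-IWP2), 6525 and 481 (P-DF and P-IWP2 over both days), 0 (P-IWP2 against P-DF), and 94 and 358 (interactions). With 1 library left out they ran, in that order, from 82 to 4494, 556 to 6646, 58 to 3129, 915 to 7102, 2 to 3578, 473 to 5998, 1281 to 9508, 5073 to 6091, 148 to 4906, 0 to 35, 0 to 1578 and 3 to 6072. DESeq2 gave 1561 and 621 for P-DF and P-IWP2 on Day 12, 1059 for the days in NP-IWP2, 1412 for P-IWP2 over both days, 4 for P-IWP2 against P-DF, and 485 and 1365 for the interactions, and limma gave 386 and 177 on Day 12 and 282 for P-IWP2 over both days. A model of the compared groups alone gave 5478 and 6992 for P-DF, 0 and 5103 for P-IWP2, 5075, 6286 and 0 for the days, and 2370 and 37 for the interactions. With all 12 libraries the counts over both days were 4235 and 2143, and total-count scaling gave 550 for the P-IWP2 interaction. Without the filter they were 3107 and 4671 for P-DF on Day 12 and Day 16, 1527 for P-IWP2 Day 12, 2045 for the days in NP-IWP2, 1521 and 1003 for P-IWP2 over both days against NP-IWP2 and P-DF, and 1124 and 2732 for the interactions. Total-count scaling changed the split of genes higher and lower on Day 16 from 1051 and 1924 to 558 and 2870 in P-DF, and from 1395 and 1941 to 733 and 3422 in P-IWP2. The 2 libraries per group limit the precision of all values.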
